A study of Mus musculus with 24 samples.

Results

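The cell cycle and DNA replication genes described here are 54 genes chosen by name for their function: 8 cyclins, 9 kinases, kinase inhibitors and regulators, 9 genes of replication licensing, 9 genes of DNA synthesis and nucleotide supply, and 19 genes of mitosis. A gene entered the list if a probe on the array carried its symbol, and this rule uses no measured value, although the genes were chosen with earlier results of these data known. All 54 were on the array, with 85 probes, and all 54 were among the 17342 genes tested, out of 21590 gene symbols.

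Cells of C57BL/6 mice were measured on 12 Agilent arrays of 2 colours, where the red and the green dye of an array carried RNA from separate replicates (labelled biological) under the same treatment. Elicited peritoneal macrophages (EPM) were washed from the peritoneum after thioglycollate and kept overnight in a dish. Bone marrow-derived macrophages (BMDM) were grown from marrow in medium with L-cell supernatant, a source of the macrophage growth factor M-CSF, and replated overnight with M-CSF. B cells were resting splenic B cells, left after depletion of cells bearing CD43 or CD11b. Each cell type was measured in 4 conditions with 2 samples each: an early control, Kdo2 lipid A (KLA, a defined lipid A that activates Toll-like receptor 4) for 1 h, the solvent DMSO for 12 h, and KLA for 12 h. The early control was untreated in EPM and B cells and DMSO for 1 h in BMDM. No group carried a transgene or deletion, and the labels do not give the age or the number of mice or say whether replicates were pooled.

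D-type cyclins bind Cdk4 and related kinases and link growth signals to the start of a cycle, cyclin E with Cdk2 starts DNA synthesis, cyclin A acts through S phase, and cyclin B with its kinase drives mitosis. The Mcm proteins form the helicase that licensing loads onto replication origins, and E2F and Foxm1 are transcription factors of the genes for S phase and mitosis. BMDM divide in M-CSF, whereas elicited macrophages and resting B cells divide little, and loss of M-CSF or activation through Toll-like receptor 4 is known to slow the division of cultured macrophages.

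The promoters of 5 members are shown because their genes were among the most changed after KLA or carry the motifs best known for these genes. They are the 150 bases before the RefSeq transcription start on GRCm38.p6, 5′ to 3′ on the strand of the gene, with capitals on every match to the E2F letters (TTTGGCGC, TTTCCCGC, TTTGGCGG or TTTCGCGC), the CHR letters (TTTGAA or TTTCGAA, an element of genes for mitosis), CCAAT (bound by NF-Y) or the E-box CACGTG (bound by Myc and its relatives), on either strand.
Plk1 promoter, chr7:122159285-122159434, forward strand: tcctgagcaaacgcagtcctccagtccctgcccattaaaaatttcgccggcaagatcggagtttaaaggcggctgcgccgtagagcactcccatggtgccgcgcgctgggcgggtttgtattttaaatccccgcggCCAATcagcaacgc
Cdc20 promoter, chr4:118437344-118437493, reverse strand: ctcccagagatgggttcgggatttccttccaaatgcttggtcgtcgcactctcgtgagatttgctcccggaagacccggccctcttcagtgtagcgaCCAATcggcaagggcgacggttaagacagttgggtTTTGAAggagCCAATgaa
Ccnb1 promoter, chr13:100786487-100786636, reverse strand: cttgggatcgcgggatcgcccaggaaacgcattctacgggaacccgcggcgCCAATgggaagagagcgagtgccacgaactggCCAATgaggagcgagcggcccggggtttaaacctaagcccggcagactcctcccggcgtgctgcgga
Rrm2 promoter, chr12:24708104-24708253, forward strand: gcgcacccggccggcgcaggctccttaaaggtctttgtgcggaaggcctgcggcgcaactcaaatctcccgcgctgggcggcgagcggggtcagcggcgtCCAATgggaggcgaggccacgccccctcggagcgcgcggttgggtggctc
Mcm6 promoter, chr1:128359706-128359855, reverse strand: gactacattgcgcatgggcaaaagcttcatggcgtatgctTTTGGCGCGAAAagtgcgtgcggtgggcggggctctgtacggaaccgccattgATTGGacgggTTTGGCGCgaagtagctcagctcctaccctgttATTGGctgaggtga
Plk1, Ccnb1 and Rrm2 hold CCAAT matches only, Cdc20 holds 2 CCAAT matches and 1 CHR match, and Mcm6 holds E2F matches, of which the forward and the reverse match in the upstream run overlap, beside 2 reverse CCAAT matches. Over the 250 bases before the start, 44 of the 54 members had a RefSeq window. CCAAT was found in 31 of the 44 (70.5%) and in 37.5% of all 27025 genes with a window, and in 14 of the 17 mitosis genes with a window (82.4%). An E2F match was found in 6 of the 44 (13.6%) against 2.26% of all genes, 4 of these 6 among the 7 licensing genes with a window. A CHR match was found in 12 of the 44 (27.3%) against 18.8% of all genes, and the E-box in 3 (6.82%) against 6.86%. These counts describe letters in a window and not binding.

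Values are log2 intensities after normalization, where a difference of 1 is a 2-fold change. A gene was called where limma's moderated test gave a p under 0.05 once adjusted by the Benjamini-Hochberg method across every tested gene, and groups hold n = 2 samples each. The 2 samples of a condition shared an array, so their spread leaves out differences between arrays, and a fit with array means as samples is given beside the results it changes. For a KLA comparison, that fit sets the KLA array against the early and the 12 h control arrays of the cell type together. Each cell type was on a slide of its own, so in comparisons of level an effect of the slide cannot be told apart from one of the cell type. In these bulk samples fewer cycling cells and less RNA per cell cannot be told apart. All 54 members were well above background in every macrophage condition, and 50 to 53 were so in both samples of the B cell conditions. The spindle motor gene Kif11 was so in none of the B cell samples, and its early level was at least 3.09-fold lower in B cells than in BMDM. This bound rests on its measured signal, 6.18 in both untreated B cell samples. That signal lay above the dimmest signal well above background, which was 5.44 to 6.16 over the samples.

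The cell types carried their own markers. All 7 macrophage markers were above background in every macrophage condition, and all 7 B cell markers in every B cell condition. The summed B cell list lay between 18.07 and 18.39 in B cells, 15.88 and 16.05 in EPM and 14.31 and 14.84 in BMDM. Among B cell samples, the macrophage marker Emr1 lay between 7.41 and 7.56 in the untreated and KLA 1 h samples and between 10.51 and 10.92 in the DMSO 12 h and KLA 12 h samples, while Mrc1 was not above background in any. The B cell labels conflict between the deposited files. Relative to the B cell mean, the columns for B cell KLA 1 h in the authors' normalized table correlated across probes at -0.74 and -0.69 with the scanner values labelled the same way and at 0.97 with those labelled DMSO 12 h, and the columns for DMSO 12 h did the reverse (-0.75 and -0.69 against 0.96 and 0.97). The other 20 columns matched their own condition best. Scanner labels are used below, and for B cell results that rest on these 4 samples values under exchanged labels are called exchanged.

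In the control samples, BMDM held the highest level of most members and B cells the lowest. At the early time 48 of the 54 were lower in EPM than in BMDM and 2 were higher, where 29.4% and 28.5% of all genes were (57.8% in either direction), with a median difference of -1.33 over the members and -0.01 over all genes. Of the 48, 39 were over 2-fold lower, against 5.07% of all genes. Beside this result, all 6 neutrophil markers were lower in EPM than in BMDM at both times, with a summed signal of 9.08 to 9.10 in early EPM, where 3 of 6 were above background, and 10.74 to 10.82 in early BMDM, and their part in it was not tested. BMDM had the highest early mean for 43 members, B cells for 8 and EPM for 3.

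**Figure D1:**
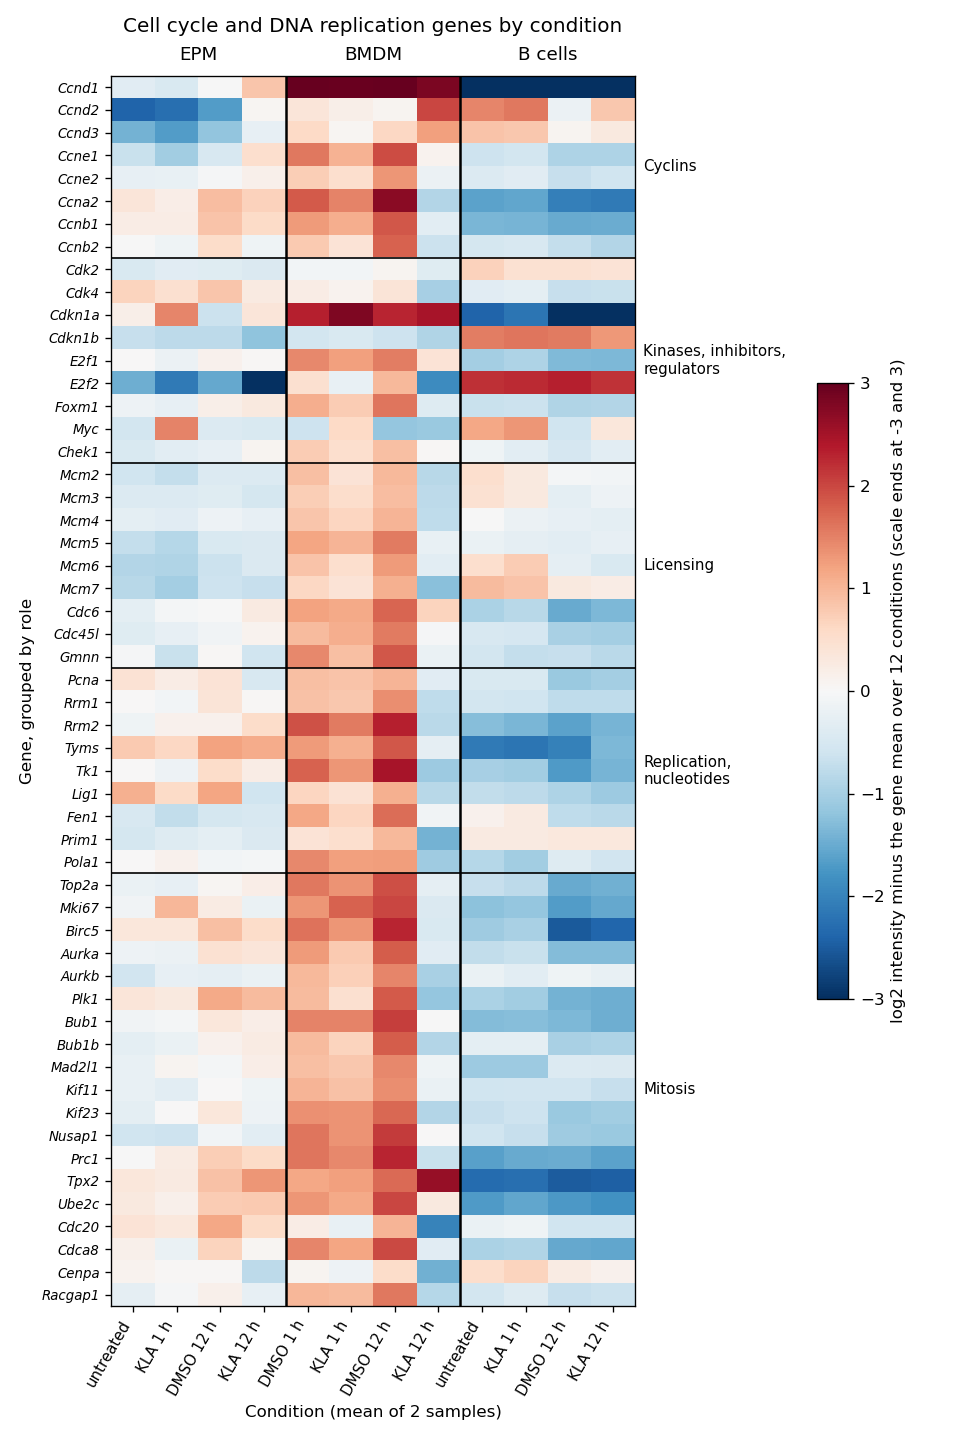
Mean log2 intensity of each of the 54 genes in the 12 conditions, as the difference from the mean of that gene over all conditions (colour, ending at -3 and 3; n = 2 samples per condition). The BMDM columns are the reddest except after 12 h of KLA, where most members turn blue; 48 of the 54 fell there against the 12 h control.

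Among the cyclins, Ccnd1 measured 13.31 and 13.14 in early BMDM, 9.21 and 9.26 in EPM and 6.39 and 6.42 in B cells. The 3 cell types did not overlap, and EPM lay 15.9-fold below BMDM (log2 difference -3.99, SE 0.06, limma adjusted p = 9.82e-20). Ccnd2 ran in another order, at 12.43 and 12.12 in B cells, 11.16 and 11.25 in BMDM and 8.42 and 8.42 in EPM. Ccnd3 was at 11.45 and 11.49 in B cells, close to 11.23 and 11.18 in BMDM, and at 9.23 and 9.13 in EPM. The difference of Ccnd3 between B cells and BMDM was 0.27 (adjusted p = 0.000311) and had the opposite sign, -0.12, without quantile normalization. Ccne1 was 12.85 and 12.63 in BMDM, 10.52 and 10.47 in EPM and 10.51 and 10.56 in B cells, where the last 2 differed by 0.04 (adjusted p = 0.657). Ccnb1 was 9.38 and 9.51 in BMDM, 8.29 and 8.47 in EPM and 6.85 and 6.73 in B cells.

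Among the regulators, the kinase inhibitor Cdkn1a was also highest in BMDM, at 12.97 and 13.15, with 10.87 and 10.93 in EPM and 8.34 and 8.34 in B cells. The inhibitor Cdkn1b was instead highest in B cells, at 10.87 and 10.66, with 8.79 and 8.52 in BMDM and 8.60 and 8.46 in EPM, and the macrophages did not differ past the threshold (-0.13, SE 0.14, adjusted p = 0.467). E2f2 was 12.66 and 12.47 in B cells, 10.82 and 10.87 in BMDM and 8.97 and 8.83 in EPM, while its relative E2f1 was highest in BMDM at 10.78 and 10.55 and lowest in B cells at 8.36 and 8.08, with EPM at 9.36 and 9.11. Myc, a transcription factor of cell growth, was 11.48 and 11.47 in B cells and 9.75 and 9.77 in EPM against 9.68 and 9.68 in BMDM. The members that were higher in EPM than in BMDM were Cdk4, the kinase of D-type cyclins (0.43, adjusted p = 0.00354), and the DNA ligase Lig1 (0.42, adjusted p = 3.98e-05).

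All 9 licensing genes were over 2-fold lower in early EPM than in BMDM. Mcm5 was 12.92 and 12.90 in BMDM, 11.06 and 10.99 in EPM and 11.55 and 11.51 in B cells, and Mcm2 was 11.30 and 11.16, 9.78 and 9.67, and 10.91 and 10.76. For both, B cells lay between the macrophages, above EPM by 0.51 and 1.11. Of the replication genes, Rrm2, a subunit of ribonucleotide reductase, was 10.49 and 10.30 in BMDM, 8.5 and 8.23 in EPM and 7.14 and 7.27 in B cells. The sliding clamp Pcna differed less, at 15.21 and 15.02, 14.74 and 14.58, and 13.91 and 13.61. Of the 19 mitosis genes 17 were lower in EPM than in BMDM and none was higher, while with dye as a block Cdc20 was called higher. Top2a was 9.99 and 10.17 in BMDM, 8.27 and 8.31 in EPM and 7.79 and 7.84 in B cells, the proliferation marker Mki67 was 12.06 and 12.14, 10.59 and 10.74, and 9.5 and 9.59, and the kinase Plk1 was 10.97 and 11, 10.44 and 10.40, and 9.19 and 9.03. These mitosis genes ran in the same order of BMDM, EPM and B cells.

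Early B cells differed from BMDM in 53 of the 54, with 45 lower and 8 higher against 39.1% and 37.5% of all genes (76.6% in either direction). The largest gaps were Ccnd1 (-6.82), Cdkn1a (-4.72), the spindle gene Tpx2 (-3.49), Ccna2 (-3.44) and the thymidylate synthase Tyms (-3.41), and the largest in the other direction Cdkn1b (2.11), Myc (1.79), E2f2 (1.72), Ccnd2 (1.07) and Cdk2 (0.77). Against EPM, 33 were lower and 17 higher in B cells, where 38.6% and 38.5% of all genes were (77.2% in either direction). Of the 9 licensing genes 6 were higher in B cells than in EPM and 2 lower, whereas of the 19 mitosis genes 15 were lower and 2 higher. The largest differences were Tyms (-2.91), Ccnd1 (-2.83), Tpx2 (-2.67), Cdkn1a (-2.56) and the ubiquitin conjugating enzyme Ube2c (-2.0) on the lower side and Ccnd2 (3.86), E2f2 (3.66), Ccnd3 (2.29), Cdkn1b (2.24) and Mcm7 (1.79) on the higher. Tyms rests on the brightest of 3 probes, whose values for B cells against EPM spanned 2.98.

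At 12 h the macrophage controls kept this gap, with 49 members lower and 2 higher in EPM than in BMDM (29.8% and 27.2% of all genes, 56.9% in either direction) and a median of -1.39. The largest were Ccnd1 (-3.47), Cdkn1a (-2.93), E2f2 (-2.52), Ccne1 (-2.43) and the flap endonuclease Fen1 (-2.21), and the higher were Myc (0.73) and Cdk4 (0.44). As labelled, B cells at 12 h were lower than BMDM in 50 and higher in 4 (39% and 37.3% of all genes, 76.4% in either direction), and lower than EPM in 39 and higher in 11 (38.4% and 38.6%, 77% in either direction). With the B cell labels exchanged these counts were 47 and 6 (38.2% and 37.9%) and 36 and 14 (37.6% and 38.9%). The largest differences from BMDM were Ccnd1 (-6.76, and -6.67 exchanged), Cdkn1a (-5.81, and -4.49 exchanged), the survivin gene Birc5 (-4.80, and -3.25 exchanged), Ccna2 (-4.76, and -4.28 exchanged) and Tpx2 (-4.19, and -3.96 exchanged). In the other direction stood Cdkn1b (2.19, and 2.23 exchanged), E2f2 (1.36, and 1.27 exchanged), Myc (0.55, and 2.47 exchanged) and Cdk2 (0.36, and 0.37 exchanged). From EPM, B cells at 12 h differed most in Birc5 (-3.43, and -1.88 exchanged), Tpx2 (-3.38, and -3.15 exchanged), Ccnd1 (-3.30, and -3.21 exchanged), Tyms (-3.24, and -3.39 exchanged) and Ccna2 (-2.98, and -2.5 exchanged) on the lower side. On the higher side stood E2f2 (3.88, and 3.79 exchanged), Cdkn1b (2.35, and 2.39 exchanged), Ccnd2 (1.49, and 3.25 exchanged), Ccnd3 (1.26, and 1.99 exchanged) and Mcm7 (0.92, and 1.49 exchanged). With the early and the 12 h control array of a cell type as 2 samples, 38 members were called between EPM and BMDM, all lower in EPM, where 9.23% of all genes were, and 43 were lower and 3 higher in B cells than in BMDM (26% and 26%). Against EPM, 28 were lower and 8 higher in B cells in that fit (26.7% and 27.3%), the licensing genes among the 8 being Mcm2 and Mcm7. With the labels exchanged, its counts were 43 lower and 5 higher than in BMDM (32% and 32.8%) and 30 lower and 13 higher than in EPM (32.4% and 33.7%).

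Most members that differed between the early and the 12 h controls were higher at 12 h in both macrophage types. In EPM, and in the B cells described below, these controls also differ in the solvent, untreated against DMSO. Time and solvent cannot be told apart in these cell types. From the early to the 12 h control 31 of the 54 rose in EPM and 1 fell, where 10.8% and 8.31% of all genes did, and 39 rose in BMDM and 2 fell, where 13.2% and 9.98% did. The mitosis genes took the largest part, with 16 of 19 up in EPM and 19 of 19 in BMDM and medians of 0.47 and 0.55. Of the 31 in EPM 28 were also among the 39 in BMDM. The compared conditions are single arrays on the same slide, so no fit with arrays as samples could be made for these comparisons.

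**Figure D2:**
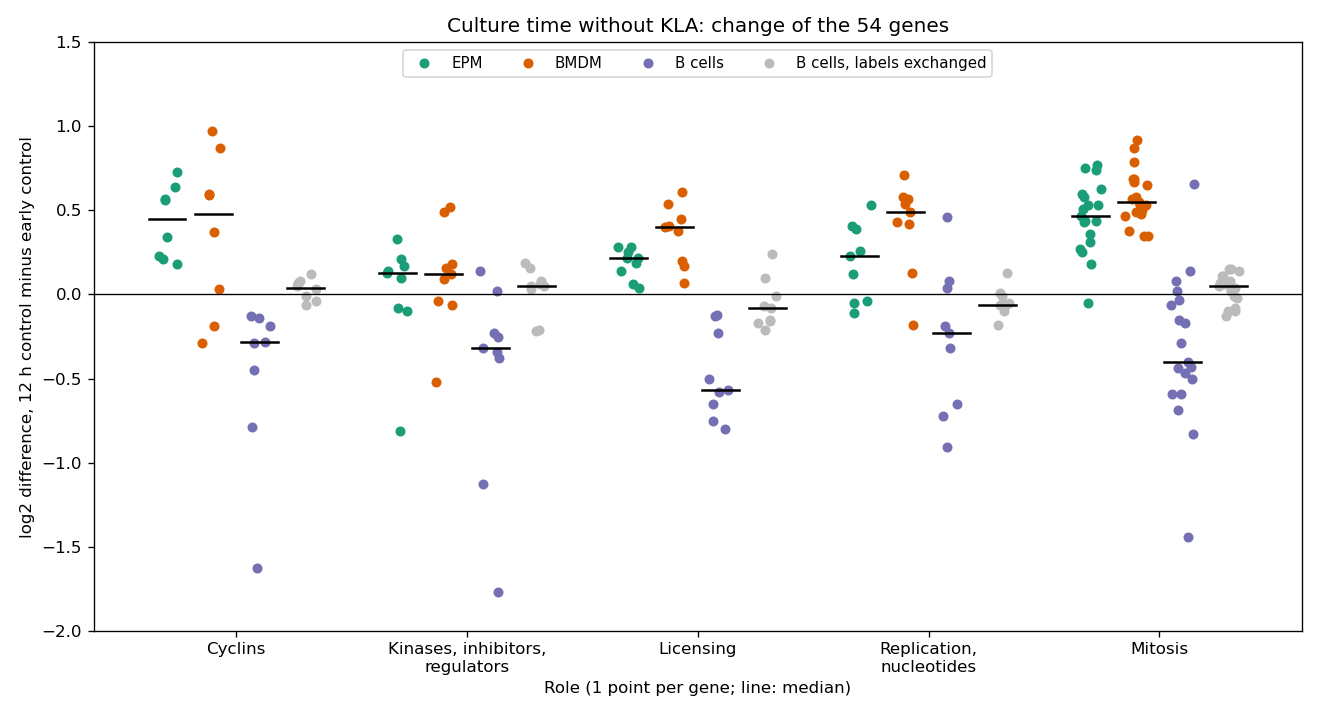
Log2 difference between the 12 h control and the early control for each gene (point) by role, with the median of each role as a line, in EPM, BMDM and B cells, and in B cells with the KLA 1 h and DMSO 12 h labels exchanged. Most macrophage points lie above 0, B cell points lie mostly below 0 as labelled and around 0 with the labels exchanged.

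Plk1 rose from 10.44 and 10.40 to 11.16 and 11.20 in EPM and from 10.97 and 11 to 11.97 and 11.83 in BMDM, without overlap (0.77, adjusted p = 5.32e-07, and 0.92, adjusted p = 4.68e-08). Cdc20, the activator of the anaphase ligase, rose by 0.74 and 0.79. Ccnb1 rose from 8.29 and 8.47 to 9.06 and 8.99 in EPM and from 9.38 and 9.51 to 10.02 and 10.07 in BMDM. These 3 act in mitosis and shared the direction in both macrophages. The other largest increases were Prc1 (0.75) and Ccnd2 (0.73) in EPM and Ccnb2 (0.97), Ccna2 (0.87) and the checkpoint kinase gene Bub1b (0.87) in BMDM. Cdkn1a was the member that fell in EPM, from 10.87 and 10.93 to 9.86 and 10.33 (-0.81, adjusted p = 3e-05), and in BMDM the values were 12.97 and 13.15 against 12.99 and 13.06. Myc fell in BMDM from 9.68 and 9.68 to 9.15 and 9.18 (-0.52) and Ccnd1 from 13.31 and 13.14 to 13.04 and 13.04 (-0.19, adjusted p = 0.0218). Ccnd1 was also called with dye as a block and with the mean of probes. It was not called with processed signals, normexp offset 16, the authors' values or a fit of 1 cell type alone. Mki67 rose from 10.59 and 10.74 to 11.06 and 10.98 in EPM and from 12.06 and 12.14 to 12.71 and 12.84 in BMDM, while Pcna, Cdkn1b and E2f1 did not pass the threshold in either.

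As labelled, B cells went the other way: 36 members fell and 2 rose from untreated to DMSO 12 h, where 22.4% and 25% of all genes did, with a median of -0.32. With the labels exchanged none was called by limma (6 at an unadjusted p under 0.05, where 19.2% of all genes were), and the median was 0.03. As labelled, Myc fell from 11.48 and 11.47 to 9.73 and 9.69 (-1.77, adjusted p = 2.99e-12; 0.16 exchanged), Ccnd2 from 12.43 and 12.12 to 10.55 and 10.73 (-1.63; 0.12 exchanged), Birc5 from 10.16 and 10.14 to 8.84 and 8.58 (-1.44; 0.11 exchanged) and Cdkn1a from 8.34 and 8.34 to 7.18 and 7.24 (-1.13; 0.19 exchanged). Fen1 followed at -0.91 (0.13 exchanged). The checkpoint gene Mad2l1 rose by 0.66 and the polymerase subunit Pola1 by 0.46 as labelled (-0.01 and -0.18 exchanged). The 3 Myc probes spanned 0.90. Beside this result, 4 of 4 tested erythroid markers fell, Hbb-b1 from 12.83 and 13.03 to 11.83 and 11.87, with the summed signal of the erythroid list between 13.32 and 13.51 in untreated and 12.33 and 12.38 in DMSO 12 h samples. Over the same samples the summed macrophage list lay at 10.01 to 10.02 and 11.42 to 11.49 and the B cell list at 18.08 to 18.09 and 18.33 to 18.39. The T cell list lay at 10.45 to 10.76 and 11.56 to 11.74 and the germinal centre list at 13.27 to 13.48 and 13.86 to 14.21. Their part in the result was not tested.

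After 1 h of KLA as many members rose as fell in EPM, and more fell than rose in BMDM. The control was untreated in EPM and DMSO for 1 h in BMDM. In EPM 8 rose and 8 fell, where 9.39% and 19.7% of all genes did (29.1% in either direction). In BMDM 3 rose and 27 fell, where 11% and 17.6% did. The 3 that rose in BMDM, Myc, Cdkn1a and Mki67, also rose in EPM, and all 8 that fell in EPM were among the 27 in BMDM. With array means as samples, where both control arrays of a cell type stand against 1 KLA array, none was called in EPM or BMDM. With dye as a block, the replicate number being the dye, the EPM counts were 12 up and 15 down, where 12.8% and 27.9% of all genes were called.

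Myc rose from 9.75 and 9.77 to 11.74 and 11.84 in EPM (4.09-fold, log2 2.03, SE 0.08, adjusted p = 3.7e-13) and from 9.68 and 9.68 to 10.97 and 10.82 in BMDM (2.32-fold, log2 1.21, adjusted p = 7.47e-10). Cdkn1a rose from 10.87 and 10.93 to 12.19 and 12.21 in EPM (1.30) and from 12.97 and 13.15 to 13.44 and 13.63 in BMDM (0.47). Mki67 rose from 10.59 and 10.74 to 11.66 and 11.89 in EPM (1.11) and from 12.06 and 12.14 to 12.59 and 12.48 in BMDM (0.43). For each of these genes the KLA and control samples did not overlap. The rise was larger in EPM than in BMDM by 0.82 for Myc, 0.83 for Cdkn1a and 0.68 for Mki67 (limma adjusted p of the difference 4.61e-05, 0.00137 and 0.000454). Because the control was untreated in EPM and DMSO in BMDM, cell type and type of control cannot be told apart in any difference at 1 h. Smaller increases in EPM were those of the kinase Aurkb (0.34) and of Mad2l1 (0.31). On the lower side E2f2 fell from 8.97 and 8.83 to 8.28 and 8.20 in EPM and from 10.82 and 10.87 to 10.17 and 10.13 in BMDM (-0.65 and -0.69). Gmnn, the inhibitor of licensing, fell by 0.64 and 0.54, and Ccne1 from 10.52 and 10.47 to 10.15 and 10.08 and from 12.85 and 12.63 to 12.24 and 12.17. In EPM, Lig1 (-0.47) and the chromosomal passenger gene Cdca8 (-0.34) completed the largest decreases. Ccnd1 fell in BMDM from 13.31 and 13.14 to 12.58 and 12.49 (-0.69, adjusted p = 2.23e-08), whereas in EPM its samples were 9.21 and 9.26 against 9.11 and 9.10 (-0.13, adjusted p = 0.101), a difference of 0.56 between the cell types (adjusted p = 7.97e-05). In the test of the difference 13 members were higher in EPM and none lower, where 4.07% and 5.48% of all genes were, and 24 and 1 with dye as a block (7.69% and 10.2%). No member was called with array means as samples, nor was any at an unadjusted p under 0.05.

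**Figure D3:**
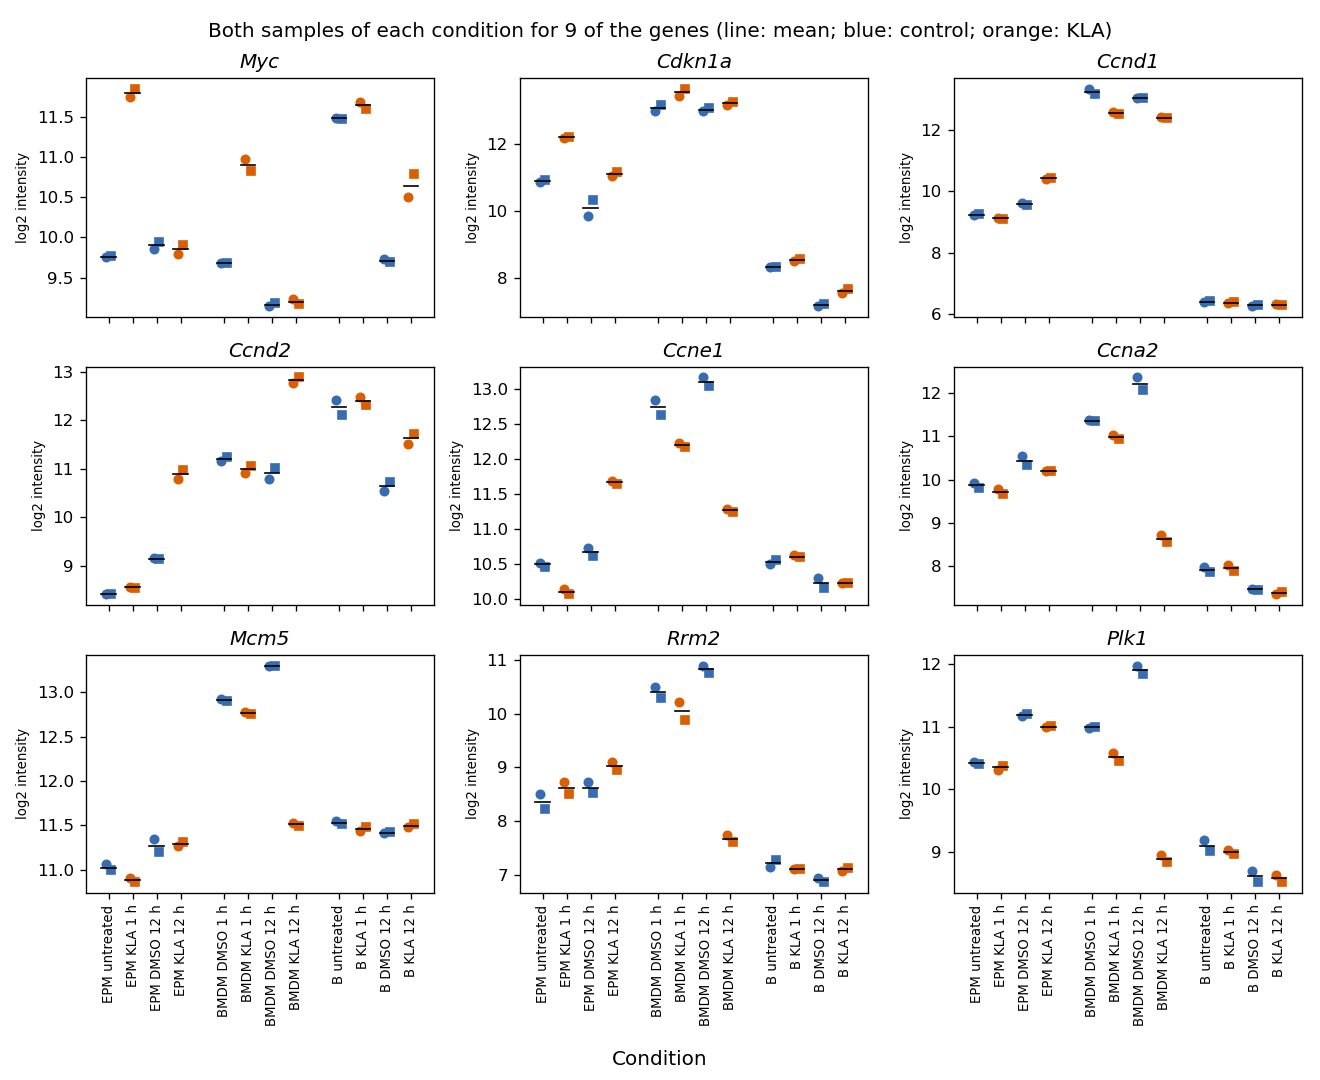
Log2 intensity of both samples (circle, replicate 1; square, replicate 2) and their mean (line) in each of the 12 conditions for 9 genes, with controls in blue and KLA in orange; each panel has its own vertical range. Myc peaks after 1 h of KLA in both macrophages, and Ccna2, Mcm5, Rrm2 and Plk1 drop in BMDM after 12 h of KLA with no such drop in EPM.

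After 12 h of KLA nearly all members fell in BMDM. Of the 54, 48 fell and 3 rose, where 36.3% and 28.6% of all genes did (65% in either direction), and the median was -1.99 against -0.02 over all genes. Over 2-fold decreases were found in 45 of 54 against 9.04% of all genes, and over 4-fold decreases in 26 against 1.36%. All 9 licensing genes, all 9 replication genes and 18 of the 19 mitosis genes fell over 2-fold, with medians of -1.78, -2.15 and -2.31. The array means fit that follows has both control arrays, early and 12 h, as its control. With array means as samples 42 were lower, where 11.8% of all genes were. Leaving out each of the 4 samples in turn gave 51 calls each time, the number called with all samples.

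The largest decrease was that of Ccna2, from 12.37 and 12.08 to 8.71 and 8.56 (12.0-fold, log2 -3.59, SE 0.09, adjusted p = 1.75e-16). The thymidine kinase Tk1 went from 12.47 and 12.68 to 8.89 and 9.13 (-3.57), Rrm2 from 10.90 and 10.76 to 7.74 and 7.61 (-3.15), Cdc20 from 12.05 and 12.15 to 9.04 and 9.12 (-3.03) and Plk1 from 11.97 and 11.83 to 8.96 and 8.85 (-3.0). In each the control and KLA samples lay far apart against differences of at most 0.29 between replicates. The promoters of Rrm2, Cdc20 and Plk1 printed above hold a CCAAT match in the 150 bases before the start. CCAAT was found in 70.5% of the members with a window over 250 bases, so sharing it does not set these genes apart. Tk1 had a window and no match to any of the letters. No match was found for Ccna2 either, for which a window is not certain.

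Among the other cyclins in BMDM, Ccne1 fell from 13.17 and 13.04 to 11.29 and 11.25 (-1.84), Ccnb1 from 10.02 and 10.07 to 7.71 and 7.96 (-2.20) and Ccnd1 from 13.04 and 13.04 to 12.40 and 12.39 (-0.65). The remaining D-type cyclins rose, Ccnd2 from 10.80 and 11.02 to 12.78 and 12.89 (3.80-fold, log2 1.93, adjusted p = 1.33e-11) and Ccnd3 from 11.25 and 11.22 to 11.81 and 11.87 (0.61). Of the regulators, E2f1 fell from 10.88 and 10.63 to 9.71 and 9.59 (-1.11) and E2f2 from 11.36 and 11.32 to 8.52 and 8.44 (-2.86). The kinase inhibitors did not pass the threshold: Cdkn1a was 12.99 and 13.06 against 13.16 and 13.26 (0.19, adjusted p = 0.137, although called higher with dye as a block and without quantile normalization) and Cdkn1b 8.69 and 8.49 against 8.27 and 8.34 (-0.29, adjusted p = 0.0848). Myc was 9.15 and 9.18 against 9.23 and 9.17 (0.03, and -0.29 without quantile normalization, adjusted p = 0.735 and 0.00284). The licensing genes moved together, with Mcm2 from 11.25 and 11.36 to 9.45 and 9.53 (-1.82) and Mcm5 from 13.29 and 13.30 to 11.53 and 11.49 (-1.78), and Mcm6, whose promoter holds the E2F matches above, from 15.22 and 15.22 to 13.64 and 13.61. Pcna fell from 15.28 and 15.22 to 13.98 and 13.79 (-1.36). Top2a went from 10.36 and 10.49 to 8.14 and 8.30 (-2.21) and Mki67 from 12.71 and 12.84 to 10.38 and 10.32 (-2.42). The mitosis gene that rose was Tpx2, from 11.17 and 11.02 to 11.99 and 12.03 (0.91, adjusted p = 2.54e-10), measured by 1 probe. The 3 Tyms probes spanned 2.25, from -2.22 to 0.03, with -2.14 for the probe used.

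Of the 27 members that fell in BMDM at 1 h, 26 fell at 12 h as well, against a different control. As 48 of all 54 members fell at 12 h, most of any such group would be among them. Beside the decrease in BMDM at 12 h, 4 of 7 macrophage markers fell and 2 rose, with Csf1r, the M-CSF receptor, going from 15.20 and 15.22 to 13.95 and 13.94 and Mrc1 from 12.59 and 12.35 to 9.65 and 9.36. The summed macrophage list lay at 18.44 to 18.56 in the controls and 18.30 to 18.49 after KLA, the neutrophil list at 10.53 to 10.64 and 10.80 to 10.85, and the progenitor list at 9.84 to 9.92 and 8.58 to 8.60. Of the 4 progenitor markers 1 fell and 1 rose. Cd34 went from 9.48 and 9.39 to 7.09 and 6.99, while Kit, Flt3 and Myb lay between 6.11 and 6.63 in these samples. Their part in the result was not tested.

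In EPM the same 12 h of KLA gave a mixed picture. Of the 54 members 21 fell and 13 rose, where 34.3% and 19.6% of all genes did, with a median of -0.09 against -0.06 over all genes. Without quantile normalization the counts were 16 and 15 and the median 0.05. The cyclins contributed 5 of the 13 increases, and 10 of the 21 decreases were mitosis genes. The array means fit that follows has both control arrays, early and 12 h, as its control. With array means as samples 4 members were called, Ccnd1 and Ccne1 higher and E2f2 and Lig1 lower, where 5.62% and 5.95% of all genes were, and the median was 0.04.

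**Figure D4:**
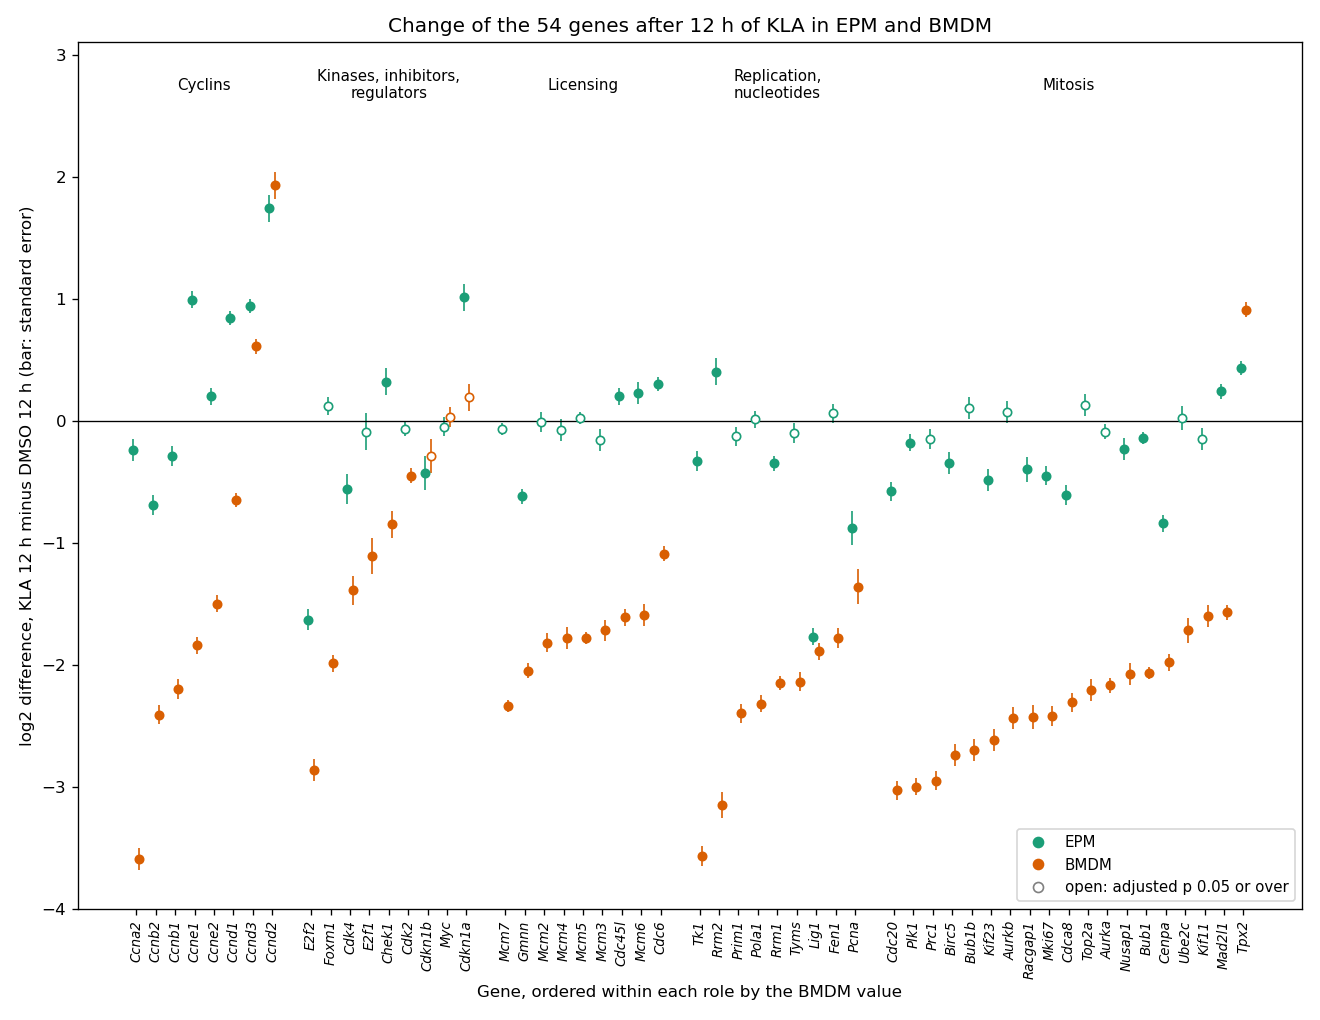
Log2 difference between KLA 12 h and DMSO 12 h in EPM (green) and BMDM (orange) for all 54 genes, ordered within each role by the BMDM value, with the standard error as bars and open circles for adjusted p of 0.05 or over. Most BMDM points lie between -1 and -4, most EPM points between -1 and 1, and Ccnd2, Ccnd3 and Tpx2 lie above 0 in both.

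Ccnd2 rose in EPM from 9.17 and 9.13 to 10.79 and 10.98 (3.34-fold, log2 1.74, SE 0.11, adjusted p = 9.36e-11). Cdkn1a rose from 9.86 and 10.33 to 11.04 and 11.17 (1.01), Ccne1 from 10.73 and 10.62 to 11.69 and 11.65 (0.99), Ccnd3 from 9.35 and 9.48 to 10.40 and 10.31 (0.94) and Ccnd1 from 9.62 and 9.53 to 10.39 and 10.43 (0.84). Thus 4 of the 5 largest increases were cyclins that act before or at the start of S phase. The largest decreases were Lig1, from 14.17 and 13.99 to 12.35 and 12.27 (-1.77), E2f2, from 8.88 and 8.76 to 7.22 and 7.16 (-1.63), Pcna, from 14.71 and 14.52 to 13.81 and 13.65 (-0.88), the centromeric histone Cenpa, from 9.51 and 9.55 to 8.72 and 8.66 (-0.84), and Ccnb2, from 11.36 and 11.41 to 10.60 and 10.80 (-0.69). Both replication genes in this group, Lig1 and Pcna, fell in BMDM as well. Mki67 fell from 11.06 and 10.98 to 10.54 and 10.61 (-0.45), Cdkn1b from 8.54 and 8.32 to 8.07 and 7.92 (-0.43), Ccnb1 from 9.06 and 8.99 to 8.71 and 8.75 (-0.29, and 0.03 with array means as samples) and Plk1 from 11.16 and 11.20 to 10.99 and 11.01 (-0.18, adjusted p = 0.0476, and 0.20 with array means as samples), and Rrm2 rose from 8.73 and 8.52 to 9.10 and 8.95 (0.40). The Ccnb1 and Plk1 values with array means as samples are against the early and the 12 h controls together, not the 12 h control alone. Mcm2, Mcm5, Top2a, E2f1 and Myc had differences between -0.09 and 0.13 and did not pass the threshold. Beside this result 4 of 7 macrophage markers fell and 2 rose, with Csf1r at 13.60 and 13.61 against 13.22 and 13.19 and Mrc1 at 11.64 and 11.47 against 9.59 and 9.46. Their part in the result was not tested.

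Of the 21 members that fell in EPM 20 were among the 48 that fell in BMDM, where 48 of all 54 members fell. Of the 13 that rose in EPM 9 fell in BMDM (Ccnd1, Ccne1, Ccne2, Chek1, Mcm6, Cdc6, Cdc45l, Rrm2 and Mad2l1) and 3 rose (Ccnd2, Ccnd3 and Tpx2). The test of the difference between the KLA changes called 49 members, 48 more positive in EPM and 1 less, where 23.2% and 24.6% of all genes were, with a median of 1.81. The largest differences were Rrm2 (3.56, SE 0.16, adjusted p = 4.9e-12), Ccna2 (3.35), Tk1 (3.24), Ccne1 (2.82) and Plk1 (2.82), and the 1 in the other direction was Tpx2 (-0.48). Ccnd2 did not differ past the threshold (-0.19, SE 0.15, adjusted p = 0.328). With array means as samples 2 were called, Ccne1 and Rrm2, where 0.283% of all genes were higher. The median level over the 54 members was 9.90 in the 12 h control and 10.16 after KLA in EPM, and 11.29 and 9.19 in BMDM. The median of the levels need not fall on the same gene in both conditions, and in EPM it moved the other way from the median difference of -0.09.

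In B cells, KLA for 1 h left all members below the threshold as labelled. No member was called by limma, 6 had an unadjusted p under 0.05 (19.2% of all genes), and 5.17% of all genes were called in either direction, 2.72% higher and 2.45% lower. With dye as a block Mcm6 was higher and Cdk2, Chek1 and Mcm2 were lower (7.19% and 6.68% of all genes). With the labels exchanged 36 fell and 2 rose (22.4% and 25%), because the exchanged comparison holds the same arrays as the culture comparison above. Myc was 11.48 and 11.47 in untreated and 11.68 and 11.59 in the KLA 1 h samples (0.16, adjusted p = 0.278; -1.77 exchanged), and Ccnd2 was 12.43 and 12.12 against 12.48 and 12.32 (0.12; -1.63 exchanged).

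After 12 h of KLA, 6 members rose in B cells and none fell as labelled, where 2.8% and 2.48% of all genes did (5.28% in either direction). In limma 10 members had an unadjusted p under 0.05, where 16.8% of all genes did. Ccnd2 rose from 10.55 and 10.73 to 11.52 and 11.73 (1.98-fold, log2 0.99, SE 0.11, adjusted p = 4.5e-06), Myc from 9.73 and 9.69 to 10.50 and 10.79 (0.93, adjusted p = 1.15e-07) and Tyms from 8.34 and 8.32 to 8.90 and 9.15 (0.70, with 3 probes between 0.03 and 0.70). Cdkn1a (0.41, adjusted p = 0.0351), Tk1 (0.31, adjusted p = 0.0284) and Ccnd3 (0.21, adjusted p = 0.0365) were close to the threshold, and leaving out any of the 4 samples left the calls Ccnd2, Myc and Tyms. With array means as samples none was called or had an unadjusted p under 0.05. With dye as a block Chek1 and Cdc6 were also called higher and Cdkn1b lower (5.67% and 5.49% of all genes). With the labels exchanged 37 fell and 3 rose (24.4% and 24.8%), and the values were -0.77 for Ccnd2, -0.99 for Myc, -0.92 for Cdkn1a and 0.85 for Tyms. Under either labelling Ccnd1 lay between 6.27 and 6.42 in all 8 B cell samples, and Kif11 was not well above background in any. Ccne2 was well above background in both untreated samples and 1 of the KLA 1 h samples, and in none labelled DMSO 12 h or KLA 12 h. Erythroid markers beside the 12 h result lay at a summed 12.33 to 12.38 in DMSO and 11.86 to 12.18 in KLA samples, and their part in it was not tested.

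A further 89 genes of the cell cycle were listed by function. Of these, 78 were on the array, and all 78 were tested and counted in the same comparisons. After 12 h of KLA in BMDM 73 fell and 2 rose, with the condensin gene Ncapd2 (-3.45) and the dUTPase gene Dut (-3.12) lowest and the securin gene Pttg1 (2.09) and the inhibitor Cdkn2d (0.59) highest. In EPM 22 fell and 12 rose, led by the inhibitor Cdkn1c (-2.11) and Rb1 (-1.59), which encodes the retinoblastoma protein, and by Pttg1 (1.75) and Rbl1 (1.23), a relative of Rb1. The difference between the cell types was called in 74 of the 78, with E2f7 (3.21) and Dut (2.90) more positive in EPM and Rb1 (-1.25) and Cdkn1c (-1.18) less. In the early controls 73 were lower and 2 higher in EPM than in BMDM, where Cdkn1c stood out at 13.27 in EPM and 8.64 in BMDM (4.63, adjusted p = 1.46e-16), followed by Rb1 (0.42), with Asf1b (-2.69) at the other end. From the early to the 12 h control 39 were higher and 3 lower in EPM and 62 were higher and 1 lower in BMDM. In B cells as labelled 16 were higher and 31 lower, with the clamp loader gene Rfc2 (1.20, and 0.29 exchanged) and Cks1b (-1.39, and -0.16 exchanged) at the ends, and with the labels exchanged 2 were higher, Chaf1b and Chaf1a, and none lower (13 at an unadjusted p under 0.05 in limma). At 1 h of KLA 6 rose and 15 fell in EPM and 2 rose and 31 fell in BMDM, with E2f8 (1.12) and the licensing factor Cdt1 (-0.57) at the ends in EPM and Smc4 (0.47) and Gins3 (-0.83) in BMDM. In B cells as labelled Chaf1b (0.40, and 0.24 exchanged) and Chaf1a (0.26, and -1.03 exchanged) rose at 1 h and Cdk6 (0.64, and -0.14 exchanged) at 12 h. With the labels exchanged 16 rose and 31 fell at 1 h and 19 rose and 27 fell at 12 h. The shares of all genes called are those given for the members in each comparison.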

How the data were processed

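RNA was measured on 12 Agilent mouse arrays of 2 colours, on 3 slides with 4 arrays of 1 cell type each. The authors deposited scanner tables of raw spot intensity in both channels (Agilent Feature Extraction 9.5.3.1, per the file headers). They also deposited a table of their own normalized intensities, which were put on the log2 scale here. The normalization of that table is not given in the sources used here. Each channel held 1 sample, Cy5 replicate 1 and Cy3 replicate 2 of the same condition, so the log ratio within an array was not used. From the deposited mean and background intensities, normexp correction (offset 50), removal of control spots, loess within arrays and quantile normalization of the average intensity between arrays gave log2 values for 24 channels. Outlier spots were left out (134 missing values among genes tested, 0 among the members) and spots of a probe averaged. Each gene was represented by its probe of highest mean (23 members had several), and genes whose probe was never well above background in both samples of any condition were left out.

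Limma 3.58.1 (R 4.3.3) was fitted over all 24 channels with a mean for each condition, which left 12 degrees of freedom for the spread, and p-values were adjusted across every tested gene (Benjamini-Hochberg). The number of arrays limits the precision. The scripts were tested on simulated data. Genes named were a fixed set of 16 cell cycle genes and, per comparison, the 5 largest differences in each direction past the threshold without overlap between groups; for the further cell cycle genes it was the 2 largest in each direction. The members and lists were chosen with earlier results of these data known. Samples with the same replicate number share a dye, and over the 66 pairs of arrays their deviations from the condition means correlated at 0.27 to 0.63, so dye was taken to pair samples and was tried as a block. Other alternatives were processed signals, normexp offset 16, no quantile step, no filter on dim probes, the mean of probes, the authors' values, a fit of 1 cell type alone, a threshold of 0.01, array means as samples, exchanged B cell labels and leaving out each sample. Control arrays of both times as samples, also with exchanged B cell labels, and, in B cells, a count without members never well above background there were chosen after seeing the data. Promoter letters were searched in RefSeq windows of GRCm38.p6, and the probe coordinates in the files, on another build, were not used. Some genes of the marker and further cell cycle lists are not reported here by name.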

Additional observations from a re-analysis of the deposited data

Results flagged for a closer look

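The change after KLA differed between EPM and BMDM in limma's test of the difference itself, for 13 members at 1 h and 49 at 12 h. At 1 h the change in EPM minus that in BMDM was 0.83 for Cdkn1a, 0.82 for Myc, 0.68 for Mki67, 0.62 for Aurkb, 0.59 for Rrm2, 0.56 for Ccnd1, 0.40 for Plk1, 0.37 for Mcm2 and 0.28 for Ccnd3 on the log2 scale. At 12 h it was 3.56 for Rrm2, 3.35 for Ccna2, 3.24 for Tk1, 2.82 for Ccne1 and 2.82 for Plk1. Mitosis and proliferation genes followed with 2.34 for Top2a, 1.98 for Mki67 and 1.91 for Ccnb1, and licensing genes with 1.80 for Mcm2 and 1.80 for Mcm5. It was 1.48 for Ccnd1, 1.01 for E2f1, 0.82 for Cdkn1a and 0.33 for Ccnd3, and -0.48 for Tpx2, the member whose increase was larger in BMDM. EPM and BMDM were on different slides. At 1 h the control was untreated in EPM and DMSO in BMDM, so cell type and type of control cannot be told apart there. With array means as samples the difference was called for 0 members at 1 h and for Ccne1 and Rrm2 at 12 h.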

How the results depend on the processing

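The 2 samples of a condition share an array, so p-values measure the spread within arrays, which may be technical. For KLA comparisons, the array means fit has the early and the 12 h control arrays together as the control. Its 12 h values are therefore not against the 12 h control alone. With array means as samples, the counts of members called were 0 for KLA 1 h in EPM, 0 in BMDM and 0 for their difference, 4 for KLA 12 h in EPM (median 0.04; Ccnb1 0.03, Plk1 0.20), 2 for the 12 h difference and 0 for KLA 12 h in B cells (median -0.15; Ccnd3 -0.19, Cdkn1a -0.16, Tk1 -0.05). With control arrays of both times as samples, Ccnd3 was -0.14 in B cells against BMDM, and at 12 h Myc was 0.77 against EPM and Ccnd2 0.40 against BMDM; with the B cell labels exchanged as well, 12 h Myc was 1.73 against EPM and Ccnd2 1.28 and Ccnd3 0.22 against BMDM. With dye as a replicate block the counts were 27 for KLA 1 h in EPM, 4 in B cells and 25 for the EPM and BMDM difference, and the block moved no other count by over 1.5 times.

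With the B cell labels exchanged, at 12 h Myc was 1.74 against EPM and Ccnd2 1.49 and Ccnd3 0.18 against BMDM. The culture count in B cells was 0, with a median of 0.03 and Ccnd2 at 0.12, Cdkn1a 0.19, Myc 0.16, Ccne1 0.08, Pcna 0.01, Mki67 0.07, Mad2l1 -0.01, Pola1 -0.18, Birc5 0.11 and Fen1 0.13. The count for KLA 1 h was 38, with Ccnd2 -1.63, Cdkn1a -1.13, Myc -1.77, Ccne1 -0.29, Pcna -0.65 and Mki67 -0.44. For KLA 12 h it was 40, with a median of -0.37 and Ccnd2 -0.77, Ccnd3 -0.52, Cdkn1a -0.92, Myc -0.99, Pcna -0.57, Top2a -0.67, Mki67 -0.37 and Tk1 -0.35. The authors' values, whose B cell columns conflict with the scanner labels, gave at 12 h Myc 1.30 against EPM and Ccnd2 1.43 and Ccnd3 0.12 against BMDM. They gave a culture count of 0 in B cells (median 0.02; Ccnd2 0.14, Myc 0.07, Ccne1 0.03, Mki67 0.04, Pola1 -0.23, Birc5 0.09, Fen1 0.11), 33 for KLA 1 h (Ccnd2 -1.52, Myc -1.68, Ccne1 -0.27, Mki67 -0.41) and 32 for KLA 12 h (median -0.31; Ccnd2 -0.75, Ccnd3 -0.47, Myc -1.0, Top2a -0.71, Mki67 -0.31, Tk1 -0.27). In macrophages they gave a median of 0.01 for KLA 1 h in EPM, a count of 15 of 51 for KLA 1 h in BMDM and 5 of 51 for the 1 h difference.

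Without quantile normalization, early Ccne1 was -0.16 in B cells against EPM and Ccnd3 -0.12 against BMDM, and 12 h Mcm5 was -0.26 against EPM. The median for KLA 12 h in EPM was 0.05, Myc for KLA 12 h was -0.29 in BMDM and 0.35 in the difference, and the count for KLA 1 h in B cells was 4. This setting moved the median of all genes from -0.02 to -0.14 for KLA 12 h in BMDM and from -0.03 to 0.17 for the 12 h difference. With the mean of probes, 12 h Cdk2 was -0.03 in B cells against BMDM, E2f1 was 0.14 for KLA 12 h in EPM and the count for KLA 1 h in B cells was 1 (Myc). At a threshold of 0.01 the counts were 3 for KLA 12 h in B cells and 7 for the 1 h difference. Leaving out each sample gave 0 to 1 for KLA 1 h in B cells (Mcm6, without untreated replicate 2) with medians of -0.02 to 0.04, and 3 for each omission for KLA 12 h in B cells. With array means as samples, the log2 values of KLA changes differ from the main ones through the pooled control. The cause of the other changes was not tested.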
